A study of Homo sapiens with 12 samples.

Results

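The proteasome genes of HEK293T cells, a human embryonic kidney line, were followed in an RNA-Seq experiment. It covered the conditions used to profile RNA-binding proteins with clickable electrophilic purines. Members were chosen by symbol, as the protein-coding genes whose name starts with PSM, a letter from A to G and a digit, which took in 49 of the 58735 genes of the count table. They were the 14 constitutive genes of the core particle (PSMA1 to PSMA7 and PSMB1 to PSMB7), 17 genes of the regulatory particle (6 ATPases and 11 non-ATPase subunits) and 18 others, among them caps, assembly chaperones and the inducible or tissue-specific core genes. One of the 18, PSMC3IP, carries the name pattern without being a subunit, since it encodes a partner protein of PSMC3 known for its part in meiotic recombination.

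There were 4 groups of 3 libraries from wild-type cells. Vehicle alone was given to the DMSO group. Cells of the CEP group were exposed to AHL-Pu-1, a cysteine-reactive purine probe, at 25 µM for 1 h. In the 4SU group the medium held 4-thiouridine, a uridine analog that enters RNA and crosslinks to protein under UV light, at 100 µM for 16 h, and the CEP+4SU group had both treatments. The sample labels write the unit of the CEP dose as mM, where the published description has µM. They carry a single protocol with UV crosslinking for all libraries, so whether cells without the uridine analog were irradiated could not be settled. The published description calls the experiments biologically independent, while the labels do not say which libraries share a culture, day or batch. The p-values measure the spread between libraries.

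The proteasome is the protease that degrades ubiquitin-tagged proteins in the cytosol and nucleus. Its core is a barrel of alpha rings that form the gate and beta rings that hold the active sites of PSMB5, PSMB6 and PSMB7, and the regulatory particle on each end binds ubiquitin, removes it and unfolds the substrate with a ring of ATPases. When proteasome activity falls short, the transcription factor NFE2L1 raises its subunit genes together through antioxidant response elements, a motif that is also bound by the electrophile-responsive factor NFE2L2.

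The libraries held from 16569114 to 24644734 counts on genes, and the 49 genes took between 0.611% and 0.644% of them. All 8 listed markers of HEK293T cells were detected in every group, with a summed level between 166 and 180.0 FPKM. Of 12 markers of blood, endothelial, liver and melanocyte cells, CD3E and TYR were at 0 in each library and PMEL stood at 2.06 ± 0.385 FPKM under DMSO (SD, n = 3), and the summed level of the 12 lay between 2.68 and 5.70 FPKM. Only 4 of the 12 had enough counts to be tested by edgeR. Of these DCT alone passed its threshold, with CEP+4SU, at 0.249 ± 0.0837 FPKM under DMSO and 0.582 ± 0.227 with both (SD, n = 3, edgeR adjusted p 0.0455). The libraries CEP 2 and CEP+4SU 2 had the fewest genes with a count, 22230 and 22627, against 24376 to 25869 in the others. In bulk RNA, fewer cells and less RNA per cell cannot be told apart.

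The antioxidant response element is shown first, as the sequence through which many of these genes are known to be raised together. The letters TGACNNNGC were searched on both strands from 250 bases before to 50 bases after each gene start in RefSeq promoters (GRCh38.p14). They were found for 15 of the 43 members with a promoter in that set (34.9%) and for 4384 of 27305 genes with one (16.1%). The share was 2 of 10 for core genes, 5 of 16 for regulatory particle genes and 8 of 17 for the others. Windows of the gene's strand are printed 5′ to 3′ with the motif or its reverse complement in capitals, first for 4 members with an unadjusted p of at most 0.05 and a higher value with CEP, averaged over 4SU, and then for 2 subunits without such a value.
PSMA4 (chr15:78540650-78540678, plus strand): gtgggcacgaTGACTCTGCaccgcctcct
PSMD12 (chr17:67366724-67366752, minus strand): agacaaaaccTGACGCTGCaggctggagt
PSME4 (chr2:53971009-53971037, minus strand): cccggcggctGCAGCGTCAccagcagagc
PSMG1 (chr21:39183616-39183644, minus strand): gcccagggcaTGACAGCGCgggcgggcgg
PSMB3 (chr17:38752627-38752655, plus strand): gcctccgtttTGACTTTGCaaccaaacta
PSMD3 (chr17:39980760-39980788, plus strand): tcccctttgtTGACTCGGCcatcggcctg
The motif of PSMA4 starts 126 bases before the gene start, that of PSMD12 165 bases and that of PSME4 34 bases before it. A match is a string of letters, and binding was not measured.

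Under DMSO, the deposited RNA levels of the constitutive subunits were far from equal. Levels are compared between genes in FPKM, the deposited fragments per kilobase of gene length, scaled to the size of the library. That gene length exceeded the length of the principal transcript unevenly. It was 6506 against 1029 bases in PSMA6 and 7698 against 1954 in PSMD14. In PSMB3 it was 1179 against 773, and in PSMC1, the lowest ATPase gene, 6161 against 4448. The part of gene length in the differences between genes was not tested. The 7 beta genes lay within a 2.42-fold range, from PSMB2 at 58.0 ± 2.79 (SD, n = 3) to PSMB4 at 140.5 ± 8.96 FPKM, with a median of 108.6. The 6 ATPase genes had a median of 34.0 FPKM between PSMC1 at 12.7 ± 0.656 and PSMC3 at 82.8 ± 5.68. The 11 non-ATPase genes had a median of 35.5 FPKM, from PSMD14, the deubiquitinase of the lid, at 15.5 ± 0.792 to PSMD4, a ubiquitin receptor, at 70.2 ± 1.76.

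Among the constitutive subunits, the alpha genes were the most uneven class. PSMA7 had the highest level of all 49 genes, 144 ± 8.75 FPKM, and its libraries overlapped those of PSMB4, the next in order. After these came PSMB7, PSMB3, PSMB5 and PSMB1 at 115, 109, 108.6 and 98.6 FPKM, in an order in which each overlapped the next. At the other end PSMA1 stood at 12.5 ± 0.674, PSMA2 at 1.53 ± 0.164 and PSMA6 at 0.558 ± 0.0872 FPKM, although every core particle holds each alpha subunit in the same number. These low alpha genes shared annotation with other genes. Of the bases of the principal transcript in GENCODE 29, 81.0% in PSMA6, 54.1% in PSMA2 and 53.2% in PSMA1 also belonged to an exon of another annotated gene, chiefly on the same strand. PSMA6 also has 4 annotated pseudogenes, whose counts came to 23.0% of its own.

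Among the 49 members, 33 shared no exon base of that transcript with another gene and 8 shared over 40%, and these 8 included PSMC1 (82.2%, with NRDE2 on the opposite strand) and PSMD7 (50.4%). Whether the counting dropped fragments that fall on more than 1 gene, and whether it used strand, is not stated, and the part of this sharing in the low levels was not tested. The FPKM of these genes is therefore a level of the deposited table. Another member with few counts, PSMD5, a chaperone of the ATPase ring with 69 counts in all, shared no exon base.

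The immunoproteasome genes PSMB8, PSMB9 and PSMB10, which replace the catalytic beta subunits in immune cells and under interferon, had almost no counts. PSMB10 had 141 counts over the 12 libraries, PSMB9 121 and PSMB8 9. Of the bases of its principal transcript, PSMB10 shares 45.3% with AC040162.1 on the same strand, a gene with 438 counts. The part of this sharing in the level of PSMB10 was not tested. PSMB10 stood at 0.340 ± 0.123 FPKM under DMSO and PSMB9 at 0.182 ± 0.0205, and in no library did PSMB8 exceed 0.0498 FPKM. By contrast PSMB5, PSMB6 and PSMB7, the constitutive counterparts, had 109 ± 6.77, 89.2 ± 4.50 and 115 ± 7.11 FPKM. The testis gene PSMA8 and the thymus gene PSMB11 had a DMSO mean of 0.0308 FPKM and of 0 FPKM, with 1 count of PSMB11 in 1 library. The caps were expressed, with PSME3 (nuclear activator) at 64.5 ± 3.65, PSME1 at 27.7 ± 2.54, PSME4 at 14.9 ± 0.652 and PSME2 at 10.7 ± 0.536 FPKM, as was the inhibitor PSMF1 at 30.7 ± 1.70. The assembly chaperones ranged from PSMD5 at 0.0344 ± 0.0332 to PSMD10 (gankyrin) at 49.6 ± 2.03 FPKM. PSMC3IP had 6.36 ± 0.0892.

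None of the 46 members that passed the low-count filter of edgeR changed past an adjusted p of 0.05 in any comparison. PSMA8, PSMB8 and PSMB11 did not pass that filter. The counts are given with the share of all 17729 tested genes. With CEP the test called 0 of 46 members, against 0.0564% of all genes, with 4SU 0 against 0.00564%, and with CEP+4SU 0 against 1.64%. CEP averaged over 4SU gave 0 against 0.276%, 4SU averaged over CEP 0 against 0.558%, and the interaction of both 0 against 0 of all genes. The 3 comparisons with DMSO share their control libraries.

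Members with an unadjusted p of at most 0.05 were no more common than among all genes with CEP, at 6 of 46 against 18.6%, and with CEP+4SU, at 8 of 46 against 21.4%. With 4SU they numbered 2 of 46 against 6.5%. The averaged comparisons gave 6 of 46 against 24.3% for CEP and 7 of 46 against 12.6% for 4SU, and the interaction gave 0 against 2.63%. By limma on log2(FPKM + 1) no member passed in any comparison, with 5, 3, 8, 7, 6 and 0 at an unadjusted p of at most 0.05 in the same order of comparisons (CEP, 4SU, CEP+4SU, CEP averaged, 4SU averaged, interaction).

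DESeq2 called 0 members with CEP and 0 with 4SU, where it called 2.63% and 0.425% of the genes that it gave an adjusted p. With CEP+4SU it called 5 members, PSMC6 and PSMD14 higher and PSMB5, PSMD8 and PSMG3 lower, against 10.6% of genes. For CEP averaged over 4SU it called 4, PSMA4, PSMD12 and PSME4 higher and PSMG3 lower, against 15.6%, and for 4SU averaged over CEP it called PSMD2, lower, against 2.6%. The adjusted p of these calls ran from 0.0130 (PSMG3, CEP averaged) to 0.0459 (PSMD14, CEP+4SU). It called 0 for the interaction, against 0% of genes.

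At an adjusted p of 0.5, the looser limit printed in the methods of the experiment, edgeR gave 13 of 46 members against 44.4% of all genes with CEP, 0 against 0.107% with 4SU and 22 against 47% with both. For CEP averaged over 4SU these were 20 against 52.3%, for 4SU averaged over CEP 12 against 20.5%, and for the interaction 0 against 0%.

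The changes of the members were small. Among genes of at least 10 CPM, the median absolute log2 fold change in the comparisons of CEP, 4SU and CEP+4SU with DMSO was 0.066, 0.081 and 0.095 for 41 members, and 0.15, 0.086 and 0.15 for all 10349 genes. Over the 31 core and regulatory particle genes the log2 fold change ran from -0.17 (PSMB5) to 0.24 (PSMD12) with CEP, from -0.21 (PSMB5) to 0.19 (PSMC6) with 4SU, and from -0.27 (PSMB5) to 0.33 (PSMC6) with both. For the 26 of them with at most 40% of shared exon bases, every 95% interval lay between -0.36 and 0.40 with CEP, between -0.38 and 0.39 with 4SU and between -0.46 and 0.52 with both.

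The beta genes of the core gave the most even pattern. With 4SU all 7 had a lower mean than under DMSO, with a median log2 fold change of -0.14 and values from -0.21 (PSMB5) to -0.095 (PSMB3), while 51.8% of all tested genes were lower and their median was -0.0073. With CEP+4SU, set against the same DMSO libraries, all 7 were lower, with a median of -0.12, against 49.99% of all genes. With CEP alone 5 of 7 were lower, with a median of -0.066, against 50.6% of all genes. No single beta gene passed the edgeR test in these comparisons. An unadjusted p of at most 0.05 held for 1 of 7 with 4SU, against 6.5% of all genes. It held for 2 of 7 with CEP+4SU, against 21.4%, and for 0 of 7 with CEP, against 18.6%. DESeq2 called PSMB5 with CEP+4SU, at an adjusted p of 0.0296. The 7 of 7 with 4SU and with CEP+4SU held under each other normalization, filter and model tried and with each library left out. The size of the shift varied more, since the median with 4SU was -0.080 with library size alone and -0.18 to -0.097 with 1 library left out, and the median with both was -0.066 with the length trend removed and -0.21 to -0.083 with 1 library left out. With CEP the count depended on the scaling, and 4 of 7 were higher once each library's trend on gene length was removed.

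PSMB5 carries the chymotrypsin-like site, the main target of proteasome inhibitors. It had 201, 179 and 199.7 CPM under DMSO, 185, 164 and 169 with CEP, 172, 154 and 177 with 4SU, and 166, 144.5 and 171 with both. All 3 libraries with 4SU and all 3 with both lay under the lowest DMSO library, and those with CEP overlapped DMSO. The log2 fold change was -0.21 (SE 0.084) with 4SU, with an edgeR adjusted p of 0.744, and -0.27 (SE 0.084) with both, with an adjusted p of 0.0878. Over the alternatives the adjusted p with both ran from 0.0142 to 0.365.

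The other catalytic genes moved less. PSMB6, of the caspase-like site, had 135.5, 123 and 132 CPM under DMSO and 121, 101.5 and 120.6 with both (log2 fold change -0.19, SE 0.095, adjusted p 0.262 by edgeR). PSMB7, of the trypsin-like site, had 219.7, 194 and 208 CPM under DMSO and 195, 185 and 190.2 with both (-0.12, SE 0.080, adjusted p 0.378 by edgeR). Its libraries overlapped DMSO, and those of PSMB6 did not. PSMB4, a beta subunit with no active site, was lower with both by a log2 fold change of -0.19 (SE 0.073, edgeR adjusted p 0.142).

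Among the alpha genes, PSMA4 had the smallest unadjusted p with CEP averaged over 4SU. Its level was 349, 346 and 354 CPM under DMSO, 394.5, 369.8 and 441 with CEP, 330.1, 353 and 343 with 4SU, and 351, 409.9 and 356 with both. The CEP libraries stood above all DMSO libraries, while 1 of the libraries with both stood clear of the rest of its group. The averaged log2 fold change was 0.16 (SE 0.055) with an edgeR adjusted p of 0.0972. PSMA7 went the other way, with -0.26 (SE 0.097) with both and an adjusted p of 0.142 by edgeR.

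In the regulatory particle the ATPase PSMC6 gave the largest fold change of the 31 subunits. It had 107.5, 103 and 98.9 CPM under DMSO, 110.4, 102.5 and 125 with CEP, 109.7, 126 and 118 with 4SU, and 118, 146 and 125 with both. The libraries with 4SU and those with both were all above the DMSO libraries. With both the log2 fold change was 0.33 (SE 0.094, edgeR adjusted p 0.0716), and it was 0.14 (edgeR adjusted p 0.363) once each library's trend on GC content was removed. With 4SU averaged over CEP it was 0.20 (SE 0.066, edgeR adjusted p 0.194). All 6 ATPase genes were higher in that averaged comparison, against 49.35% of all genes. Their median was 0.038, and the other 5 had an unadjusted p above 0.05. Against DMSO, 4 of the 6 were higher with 4SU and 3 of the 6 with both.

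The non-ATPase genes did not share a direction. PSMD12, a lid subunit, had 187.5, 188 and 201 CPM under DMSO, 215, 235 and 229.9 with CEP, 177, 207 and 198 with 4SU, and 188, 219.6 and 218 with both. Its CEP libraries stood above DMSO, and those with both overlapped it. The log2 fold change was 0.24 (SE 0.080) with CEP, with an edgeR adjusted p of 0.187. PSMD14 had 126, 114 and 119.5 CPM under DMSO, 134, 128 and 143 with CEP, 119.6, 135 and 130.5 with 4SU, and 140.3, 143 and 137 with both, so that the groups with CEP and with both were clear of DMSO. Its log2 fold change with both was 0.22 (SE 0.076, edgeR adjusted p 0.110).

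PSMD2, a scaffold subunit of the base, and PSMD8, a lid subunit, were lower with 4SU. PSMD2 had 381, 339 and 363.5 CPM under DMSO, 359.5, 381 and 324 with CEP, 309, 323 and 320.2 with 4SU, and 322, 309.6 and 317 with both. The 6 libraries with 4SU were all under the 6 without it. Averaged over CEP the log2 fold change of PSMD2 was -0.18 (SE 0.051, edgeR adjusted p 0.124) and that of PSMD8 was -0.21 (SE 0.061, edgeR adjusted p 0.129). PSMB1 was the only other member whose 6 libraries with 4SU did not overlap the 6 without it, so that 2 of 46 members were separate against 1.35% of all genes.

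Outside core and regulatory particle, the chaperone PSMG3 and the cap PSME4 gave the smallest unadjusted p with CEP averaged over 4SU. PSMG3, which pairs with PSMG4 to build the alpha ring, had 75.0, 76.3 and 85.8 CPM under DMSO, 70.9, 56.1 and 70.5 with CEP, 81.4, 71.8 and 74.6 with 4SU, and 70.4, 55.8 and 60.8 with both. Each of the 6 libraries with CEP was below each of the 6 without it. A separation in either direction held for 1 of 46 members against 1.73% of all genes. Of all genes, 0.513% were separate with the libraries with CEP lower, as in PSMG3. The averaged log2 fold change was -0.27 (SE 0.074, edgeR adjusted p 0.0702), and over the alternatives that adjusted p ran from 0.00411 to 0.353. The lowest libraries with CEP and with both were CEP 2 and CEP+4SU 2.

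PSME4, the nuclear activator also named PA200, had 146, 156 and 160.3 CPM under DMSO, 163.5, 205 and 179.8 with CEP, 139, 148 and 144 with 4SU, and 146, 176 and 163 with both. With CEP it was above every DMSO library, and with both it overlapped them. The averaged log2 fold change was 0.21 (SE 0.062, edgeR adjusted p 0.0810), with a range of 0.0140 to 0.554 over the alternatives. PSMC3IP, which is no subunit and shares 54.4% of its exon bases with MLX on the opposite strand, had 16.5 ± 0.259 CPM under DMSO (SD, n = 3) and 19.3 ± 0.937 with 4SU, at an edgeR adjusted p of 0.777.

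Counts of members whose 3 treated libraries did not overlap the 3 DMSO libraries stayed near or below the share of all genes. With CEP these were 7 of 46 members against 23.7%, with 4SU 8 of 46 against 17.9%, and with both 13 of 46 against 28.7%. With CEP, PSMA3, PSMA4, PSMD12, PSMD14 and PSME4 were higher and PSMG3 and PSMG4 lower. With 4SU, PSMC6 and PSMC3IP were higher and PSMA7, PSMB1, PSMB2, PSMB5, PSMD2 and PSMF1 lower. With both, PSMA1, PSMC2, PSMC3IP, PSMC6 and PSMD14 were higher and PSMA7, PSMB1, PSMB4, PSMB5, PSMB6, PSMD2, PSMD8 and PSMG3 lower.

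The balance of core and regulatory particle RNA was set by the mean log2 FPKM of the 14 core genes less that of the 17 regulatory particle genes. This difference was 0.107, 0.126 and 0.108 under DMSO, 0.0727, 0.0905 and 0.140 with CEP, 0.0883, -0.0157 and 0.0643 with 4SU, and 0.0646, -0.0194 and 0.0807 with both. The libraries with 4SU and with both lay under the DMSO libraries, and those with CEP overlapped them. With medians over genes in place of means, the CEP libraries also lay under DMSO, with a shift of -0.11. The separation from DMSO was lost with 4SU when medians were taken. It was also lost with 4SU when the immunoproteasome genes were counted with the core, a setting that used log2(FPKM + 1) for all genes. With both it was lost when each library's trend on gene length was removed. The group means were 0.114 ± 0.0107 under DMSO (SD, n = 3), and those with CEP, with 4SU and with the 2 together were 0.101 ± 0.0351, 0.0457 ± 0.0545 and 0.0420 ± 0.0538.

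The shift from DMSO was thus -0.068 with 4SU and -0.072 with both, where the SD within a treated group was up to 0.0545 on the same log2 scale. Library 2 of each of these groups was the lowest. Left without the 5 core and regulatory genes that share over 40% of their exon bases, the difference was 1.11 ± 0.0118 under DMSO and 1.07 ± 0.0417, 1.02 ± 0.0798 and 0.996 ± 0.0449 with CEP, 4SU and both, again with 4SU and both under DMSO. The level of the balance therefore depends on the genes counted, and FPKM also makes it depend on the gene lengths used. By class, the mean log2 FPKM of the beta genes was 6.64 ± 0.0727 under DMSO, 6.50 ± 0.0780 with 4SU and 6.49 ± 0.0620 with both, and that of the alpha genes was 3.75 ± 0.0248, 3.74 ± 0.0361 and 3.81 ± 0.0492.

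**Figure D1:**
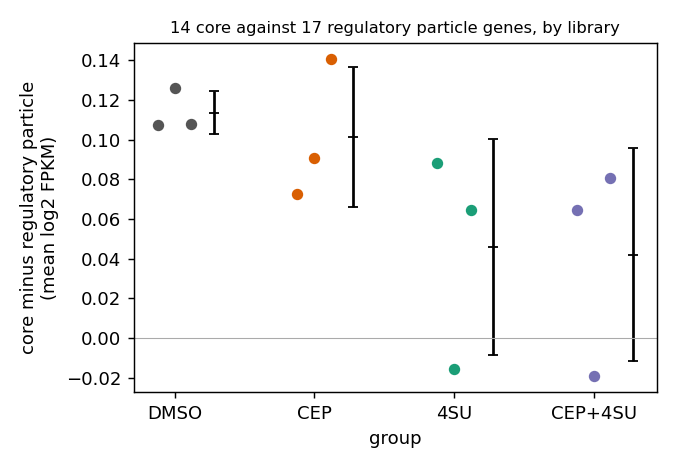
Mean log2 FPKM of 14 core genes less that of 17 regulatory particle genes, with 1 point per library in the order of the library numbers and the mean ± SD of each group in black. The 3 DMSO libraries sit between 0.107 and 0.126, and library 2 with 4SU and library 2 with both fall just under 0.

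The changes with CEP followed the GC content of the genes, in members as in all genes. Across the 31 core and regulatory particle genes the log2 fold change with CEP had a Pearson r of -0.81 with the GC content of the longest transcript, across the 46 members -0.56, and across 17718 genes -0.43. These points come from the same libraries, genes are not independent replicates, and r is given as a description. With 4SU the same values were -0.49, -0.23 and -0.16. For CEP averaged over 4SU, 20 of the 23 members of lower GC content (32.0% to 47.9%) were higher, with a median of 0.094, and 20 of the 23 of higher GC content (48.2% to 60.1%) were lower, with a median of -0.053.

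The members named for CEP lie along this trend. PSMD14 has the lowest GC content of the 46, 32.0%, PSMD12 has 37.9%, PSME4 41.5% and PSMA4 42.1%, while PSMG3 has 58.8%. With the GC trend of each library removed, the log2 fold change for CEP averaged over 4SU was -0.055 for PSMD14, 0.0029 for PSMD12, 0.044 for PSMA4, 0.077 for PSME4 and -0.15 for PSMG3. No member then had a higher value at an unadjusted p of at most 0.05 in that comparison, and 2 had a lower one. The r with GC content for that averaged comparison was then -0.062 across the 46 members and 0.40 across the 31 core and regulatory particle genes. The 6 of 7 alpha genes that were higher with CEP became 3 of 7.

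With that trend removed, PSMB5 stood at -0.20 with 4SU and at -0.24 with both, and all 7 beta genes remained lower in both comparisons. With both, PSMC6 moved from 0.33 to 0.14 and PSMD2 from -0.19 to -0.12, at edgeR adjusted p of 0.363 and 0.416 with the trend removed. For 4SU averaged over CEP, PSMD8 (-0.20, adjusted p 0.0186) and PSMD2 (-0.17, adjusted p 0.0398) passed the edgeR test with the GC trend removed, against 3.61% of all genes. In the same averaged comparison PSMC6 stood at 0.17 with an edgeR adjusted p of 0.0647.

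The 15 members with the response element motif had a median log2 fold change of -0.0079 for CEP averaged over 4SU and the 25 tested members without it 0.033. With CEP alone the medians were 0.053 and 0.031, and with CEP+4SU they were -0.018 and 0.049. For the interaction of both treatments 5 of the 15 with the motif were higher, with a median of -0.070, and 20 of the 25 without it, with a median of 0.045. Of all tested genes 50.8% were higher, and 0 of the 46 tested members had an unadjusted p of at most 0.05 for the interaction. None of the 40 members with or without the motif was called by edgeR, and no test was made between these sets. Of the 5 members with a higher value at an unadjusted p of at most 0.05 in the averaged comparison, PSMA4, PSMD12, PSME4 and PSMG1 carry the motif and PSMD14 does not. These 5 were picked by that p, so the count is a description.

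Beyond the members, 32 genes of the same pathway were followed, and 1 passed the test in 1 comparison. The list held 10 further components and partners (ADRM1, POMP, USP14 and others), 8 regulators of proteasome genes (NFE2L1, NFE2L2, KEAP1 and others), 6 ubiquitin genes and activating enzymes, and 8 shuttles and segregase genes (VCP, UBQLN1 and others). With CEP+4SU, 1 of 32 was called, against 1.64% of all genes, and with CEP, with 4SU, in both averaged comparisons and for the interaction 0 were called by edgeR. At an unadjusted p of at most 0.05 there were 6 with CEP against 18.6% of all genes, 3 with 4SU against 6.5% and 7 with both against 21.4%. The averaged comparisons gave 9 for CEP against 24.3% and 4 for 4SU against 12.6%, and the interaction gave 0 against 2.63%.

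The called gene was UBA1, the main enzyme that activates ubiquitin. It had 967, 878 and 924 CPM under DMSO, 910.2, 919 and 761 with CEP, 811, 720.4 and 765 with 4SU, and 759, 612 and 775 with both. The libraries with 4SU and with both were under those with DMSO, and CEP+4SU 2 was the lowest of the 12. With both it fell by 0.37 on the log2 scale (SE 0.090, edgeR adjusted p 0.0475). The adjusted p ran from 0.000324 to 0.215 over the alternatives, and it was 0.215 without CEP+4SU replicate 2 and 0.0618 with the GC trend removed. The median over the 8 regulators was 0.0033 with CEP and -0.064 with both, and over the 10 components and partners it was 0.071 and 0.065.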

How the data were processed

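Polyadenylated RNA of 12 HEK293T libraries was measured by paired-end sequencing. Per the labels and the methods, the authors removed adapter, poly-N and low-quality reads, aligned to GRCh38 with HISAT2 2.0.5 and counted with featureCounts 1.5.0-p3. The gene counts were deposited as whole numbers without normalization, and the authors also deposited FPKM, whose values imply division by the gene's length and by 0.981 to 1.03 times the library's total. The kit is described for directional and non-directional libraries alike, and the strand setting of the counting is not given in the sources used here. Total counts ran from 16569114 to 24644734 per library.

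Counts were tested with edgeR 4.0.16 (R 4.3.3): filterByExpr (minimum count 10, minimum total 15), TMM, and a quasi-likelihood fit of all 12 libraries with a coefficient per group. Benjamini-Hochberg adjustment ran over 17729 genes with a threshold of 0.05. CPM uses TMM library sizes (factors 0.972 to 1.03), and the common biological coefficient of variation was 0.114. Intervals are 95% intervals of the fit. Replicates within groups differed by more than sampling noise. GC content is that of the longest GENCODE 29 transcript, 58735 of 58735 identifiers matched, and trends were removed with an offset from a natural spline with 5 degrees of freedom.

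Alternatives were DESeq2 1.42.0, limma 3.58.1 on log2(FPKM + 1) or log2(FPKM + 0.1), other normalizations and filters, a robust fit, the 6 libraries of a comparison, replicate number as a block, GC or length trend removed, an adjusted p of 0.5 and each library left out. The exclusion of members with shared exons, and of both libraries with few genes, was chosen after seeing the data. Members, lists and the rule for named genes (members past the threshold, the smallest p per class with CEP averaged over 4SU, the catalytic and immunoproteasome genes, the highest and lowest level per class, PSMC3IP, and list genes past the threshold) were chosen with earlier results of these data known. PSMB1, PSMD2, PSMD8, PSMG1 and further members with printed values fall outside this rule and were chosen after their values were seen. Promoters of 6 members were not in the RefSeq set used. Of the listed genes, 2 are not reported by name here, and the counts and sums of their lists include them.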

Additional observations from a re-analysis of the deposited data

How the results depend on the processing

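The number of members past the adjusted p of 0.05, 0 in each comparison, depended on the fit. With DESeq2 it was 5 for CEP+4SU (10.6% of genes given an adjusted p), 4 for CEP averaged over 4SU (15.6%) and 1 for 4SU averaged over CEP (2.6%). Without the low-count filter it was 3 (PSMB5, PSMC6, PSMG3) against 3.46% of all genes and 2 (PSME4, PSMG3) against 4.06% in the first 2 of these. With replicate number as a block it was 2 for CEP (PSMD12, PSME4) against 4.4% of all genes, 5 for CEP+4SU against 9.4%, 4 for CEP averaged against 12.8% and 1 for 4SU averaged against 1.9%. With the GC trend removed it was 2 for 4SU averaged against 3.61%, and with the block added 3 for CEP+4SU against 2.05% and 4 for 4SU averaged against 4%. At an adjusted p of 0.5 it was 13 for CEP (44.4% of all genes), 22 for CEP+4SU (47%), 20 for CEP averaged (52.3%) and 12 for 4SU averaged (20.5%). Leaving out 1 library gave 0 to 1 for CEP (PSME4 without CEP replicate 1) and 0 to 2 for CEP+4SU (PSMC6 and PSMG3 without CEP+4SU replicate 1). For CEP averaged it gave 0 to 3 (PSMD12, PSME4 and PSMG3 without replicate 1 of either group with CEP). The share of all genes called in these fits is not given here. These counts are therefore not a result particular to the members.

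Same-numbered libraries of different groups deviated together with a mean r of 0.027 (-0.047 to 0.14 over 18 pairs). Over the 36 pairs with different numbers the mean r was -0.013, and 8 of 12 libraries correlated best with their own number. These values do not settle whether the numbers mark pairs. The labels do not state a pairing, so the main fit left the numbers out and the block is given as an alternative.

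Some log2 fold changes turned sign. For CEP, PSMB6 was 0.015 and PSMB7 0.022 with the length trend removed, and PSMD14 was -0.10 with the GC trend removed and with the block added. For CEP+4SU, PSMD14 was -0.090 and -0.091 in these fits. For CEP averaged, PSMD14 was -0.055 and -0.058 there, PSMB6 0.012 with the length trend removed and 0.0020 with GC trend removed and block, and PSMB7 0.061 with the length trend removed, -0.056 to 0.016 with 1 library left out and 0.025 without CEP replicate 2 and CEP+4SU replicate 2. The cause was not tested.

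The shift of core minus regulatory particle was -0.11 with medians, -0.050 with summed FPKM and 0.034 with the length trend removed for CEP, -0.15 with medians for 4SU and -0.17 with medians for both. For 4SU the libraries overlapped those of DMSO with medians (-0.15) and with immunoproteasome genes included on log2(FPKM + 1) (-0.058). For both they overlapped with the length trend removed (-0.045). The CEP libraries, which overlapped DMSO in the main setting, did not with medians (-0.11). With 1 library left out it was -0.032 to 0.0019 for CEP, -0.089 to -0.037 for 4SU and -0.091 to -0.041 for both. Of 880 alternative values for 40 single-gene results, 810 kept direction and side of the threshold.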
